A study of Mus musculus with 4 samples.

Results

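Foxp3, the transcription factor that defines regulatory T cells, was read position by position in whole-genome bisulfite libraries of mouse spleen CD4+ T cells. The locus was taken as the gene (gene ID 20371, chrX:7579676-7595243, mm10) with 5 kb on each side, chrX:7574676-7600243. Every cytosine position there with at least 5 reads in at least 1 library was used, which gave 326 positions of 25374149 in the whole table. The 4 libraries were OX40L-JAG1 Treg, PBS Treg, OX40L-JAG1 Teff and PBS Teff, 1 library per group. All came from NOD mice, a strain prone to autoimmune diabetes, which were 6 weeks old when weekly injections began and 10 weeks old when cells were taken. The mice received either PBS or OX40L together with Jagged-1 for 3 weeks. OX40L binds OX40, a costimulatory receptor of T cells, and Jagged-1 binds Notch receptors. Treg were sorted as CD4+CD25hi cells and Teff, the effector T cells, as CD4+CD25- cells. The labels do not give the number of animals per library or their sex, and no genotype beyond the strain.

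Foxp3 is controlled by its promoter and by conserved noncoding sequences inside the gene, called CNS1, CNS2 and CNS3. CNS2, also called the Treg-specific demethylated region (TSDR), is known for losing CpG methylation in stable regulatory T cells and keeping it in conventional T cells. CNS1 takes part in Foxp3 induction outside the thymus, and CNS3 in the first activation of the gene. A bisulfite level is the share of reads at a cytosine that were methylated, and a difference between libraries is given in percentage points.

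RefSeq lists an upstream and a downstream transcript start for Foxp3, at sites 7579676 and 7580483. The 250 bases before each are shown because the libraries differed most clearly before the downstream start. Both are RefSeq sequences of GRCm38.p6, plus strand, 5′ to 3′. Capitals mark the CpGs, the sites at which methylation was read. The upstream sequence is chrX:7579426-7579675 and holds 6 CpGs, and the downstream sequence is chrX:7580233-7580482 and holds 7.
Foxp3 upstream start: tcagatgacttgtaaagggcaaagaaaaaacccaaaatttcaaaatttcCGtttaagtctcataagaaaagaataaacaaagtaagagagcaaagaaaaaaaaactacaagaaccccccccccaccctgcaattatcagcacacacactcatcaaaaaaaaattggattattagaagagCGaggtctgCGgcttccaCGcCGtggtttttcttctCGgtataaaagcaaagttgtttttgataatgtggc
Foxp3 downstream start: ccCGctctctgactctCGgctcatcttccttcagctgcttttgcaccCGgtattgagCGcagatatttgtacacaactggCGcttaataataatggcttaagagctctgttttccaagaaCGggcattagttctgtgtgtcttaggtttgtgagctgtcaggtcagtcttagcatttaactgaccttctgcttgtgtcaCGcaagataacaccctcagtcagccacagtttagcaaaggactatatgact

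The letters TATAAA were found once in the upstream sequence, at position -32 from the start, and not in the downstream one. They are in 12.4% of 32851 RefSeq promoter sequences of the same length, searched on both strands. TTCNNNGAA, the general form of a STAT site, was found in the downstream sequence and is in 7.02% of promoters. GATAA was in both sequences and in 22.6% of promoters. TGTGGT, the core of a RUNX site, and TGACG, part of a CREB site, were in neither (14.0% and 17.8% of promoters). A match of letters is no evidence of binding.

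The locus was thinly read. OX40L-JAG1 Treg had 111 of the 326 positions, PBS Treg 151, OX40L-JAG1 Teff 185 and PBS Teff 211. Only 42 positions had at least 5 reads in all 4 libraries, and 133 had them in a single library. The median number of reads at a listed position of the locus was 6 in both Treg libraries and 7 in both Teff libraries. A single level can thus rest on a handful of reads, and single positions are given as read counts.

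Over the whole locus the Treg libraries carried less methylation than the Teff libraries. The level was 62.2% in OX40L-JAG1 Treg and 69.8% in PBS Treg, against 79.4% in OX40L-JAG1 Teff and 82.4% in PBS Teff. Within the gene alone it was 59.1% in OX40L-JAG1 Treg and 64.5% in PBS Treg, against 83.6% in OX40L-JAG1 Teff and 87.8% in PBS Teff. At the 103 positions read in both PBS libraries, Treg minus Teff was -15.7 points (95% Newcombe interval -19.0 to -12.4), with 66 positions lower, 16 equal and 21 higher. At the 79 positions read in both OX40L-JAG1 libraries, Treg minus Teff was -20.3 points (-24.7 to -15.8), with 64 positions lower, 4 equal and 11 higher. Of the 42 positions read in all 4 libraries, 30 were lower in Treg in both pairs, 2 were higher in both, and 7 went opposite ways.

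**Figure D1:**
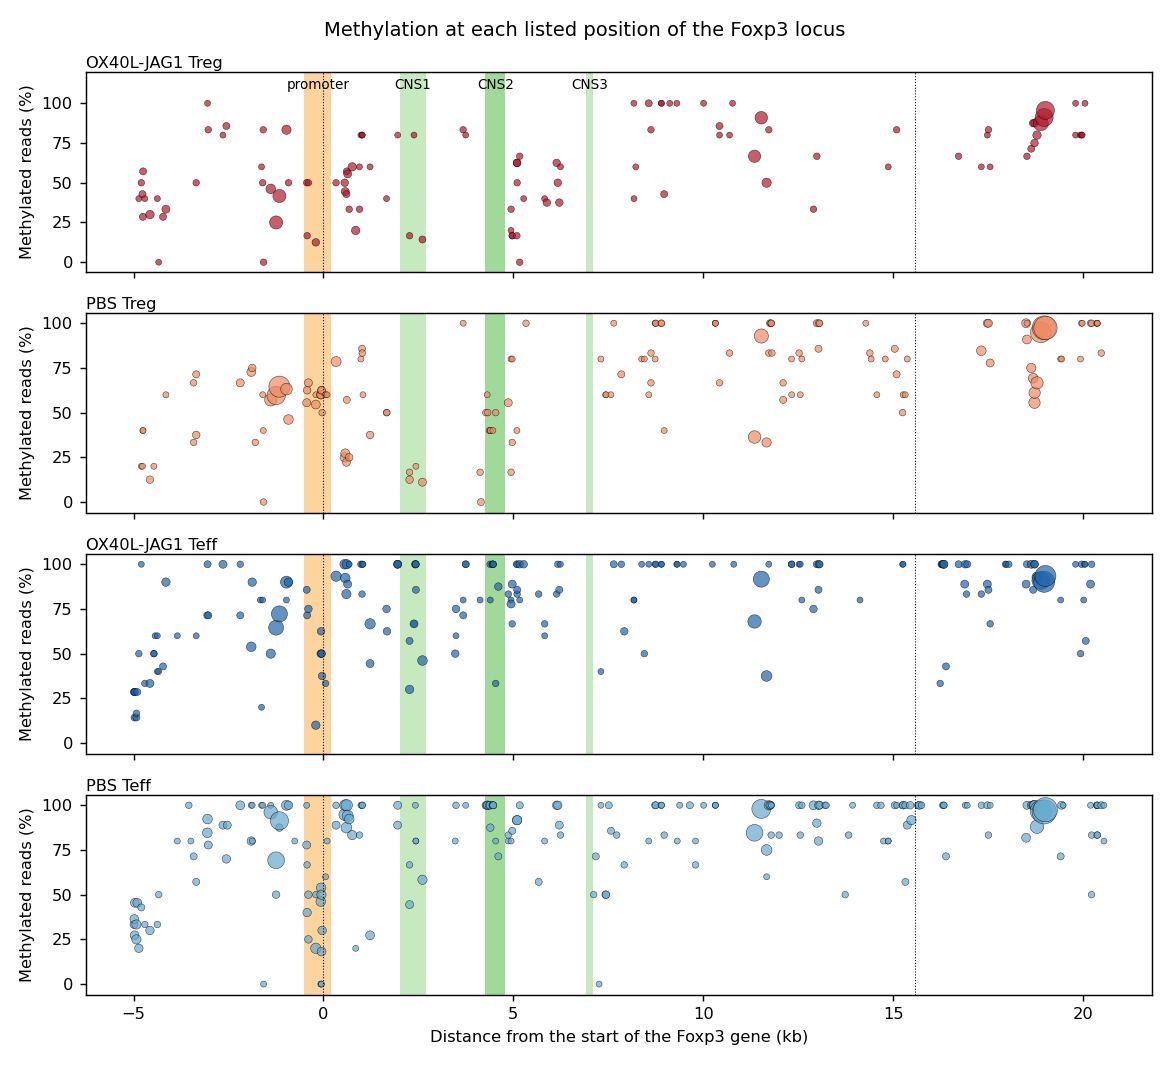
Methylation level (%) of every listed position against its distance from the gene start (kb), in 4 panels by library, with point area set by read number, dotted lines at the gene's ends and shading for the promoter, CNS1, CNS2 and CNS3. Before the downstream start the Treg points lie at 22.2% to 60% and the Teff points at 83.3% to 100%, in the promoter all 4 libraries hold points at or below 50%, and OX40L-JAG1 Treg has no point inside CNS2.

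The differences were first tested in fixed windows of 1 kb, each with at least 3 positions read in both libraries. The two-sided Fisher's exact test was run on methylated and unmethylated reads, with Benjamini-Hochberg adjustment over all windows of the genome. Calls needed both an adjusted p under 0.05 and 20 points or more between the libraries. With 1 library per group, such a test compares 2 libraries and not 2 conditions. In the PBS pair 4 of the 14 windows wholly inside the locus were called, all lower in Treg, where 0.0971% of windows were called lower over the genome and 0.0494% higher. In the OX40L-JAG1 pair 2 of 10 were called, both lower in Treg, where the genome gave 0.0239% lower and 0.0189% higher. Both of these windows were also called in the PBS pair. A read is counted at every position it covers, so p-values can be too small and intervals too narrow, and most positions were shallow. With all counts divided by 3 no window of either pair was called, and with a minimum of 10 reads 2 were called in the PBS pair and none of 3 in the other.

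The window just after the upstream start, chrX:7580001-7581000, was called in both pairs. It had 41.0% in PBS Treg and 94.6% in PBS Teff, a difference of -53.6 points (-65.4 to -39.4, adjusted p = 8.91e-10 by Fisher's exact test). It had 51.6% in OX40L-JAG1 Treg and 90.0% in the matching Teff library, a difference of -38.4 points (-51.4 to -24.3, exact test, adjusted p = 0.000365). The stretch from the promoter to CNS1, which holds this window, differed less with only the deepest position in each 150 bases. The difference was then -39.0 points (-58.1 to -15.7, 2 positions) in the PBS pair and -29.2 points (-46.7 to -11.1, 6 positions) in the OX40L-JAG1 pair. The other window called in both pairs, chrX:7584001-7585000, takes in most of CNS2 and the bases after it. It had 41.4% in PBS Treg and 92.1% in PBS Teff, a difference of -50.7 points (-63.2 to -35.5, adjusted p = 5.30e-07, exact test). With OX40L-JAG1 it had 36.8% in Treg and 88.0% in Teff, a difference of -51.2 points (-63.1 to -36.2, adjusted p = 1.33e-06, exact test).

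A further pair of windows was called in the PBS libraries. Upstream of the gene, chrX:7578001-7579000 had 58.3% in PBS Treg and 84.3% in PBS Teff, a difference of -26.0 points (adjusted p = 0.00101, exact test). The same window had 45.6% in OX40L-JAG1 Treg and 70.6% in OX40L-JAG1 Teff, and this difference of -25.0 points was not called (adjusted p = 0.260, exact test). Near the 3′ end, chrX:7594001-7595000 had 65.7% in PBS Treg and 100% in PBS Teff, a difference of -34.3 points (adjusted p = 0.0213, exact test). It had too few positions in the OX40L-JAG1 pair to be tested. In the 100 kb on either side of the locus the same Fisher's exact test called 0 of 108 windows in the PBS pair, with 4 at an unadjusted p under 0.05. It called 0 of 78 in the OX40L-JAG1 pair, with 9 at an unadjusted p under 0.05. Windows that cross the ends of the locus were left out of these counts. Among them chrX:7574001-7575000 was called higher in PBS Treg, by 24.5 points (adjusted p = 0.00267, exact test). At the genome's shares of calls given above, 0 calls are usual for so few windows.

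**Figure D2:**
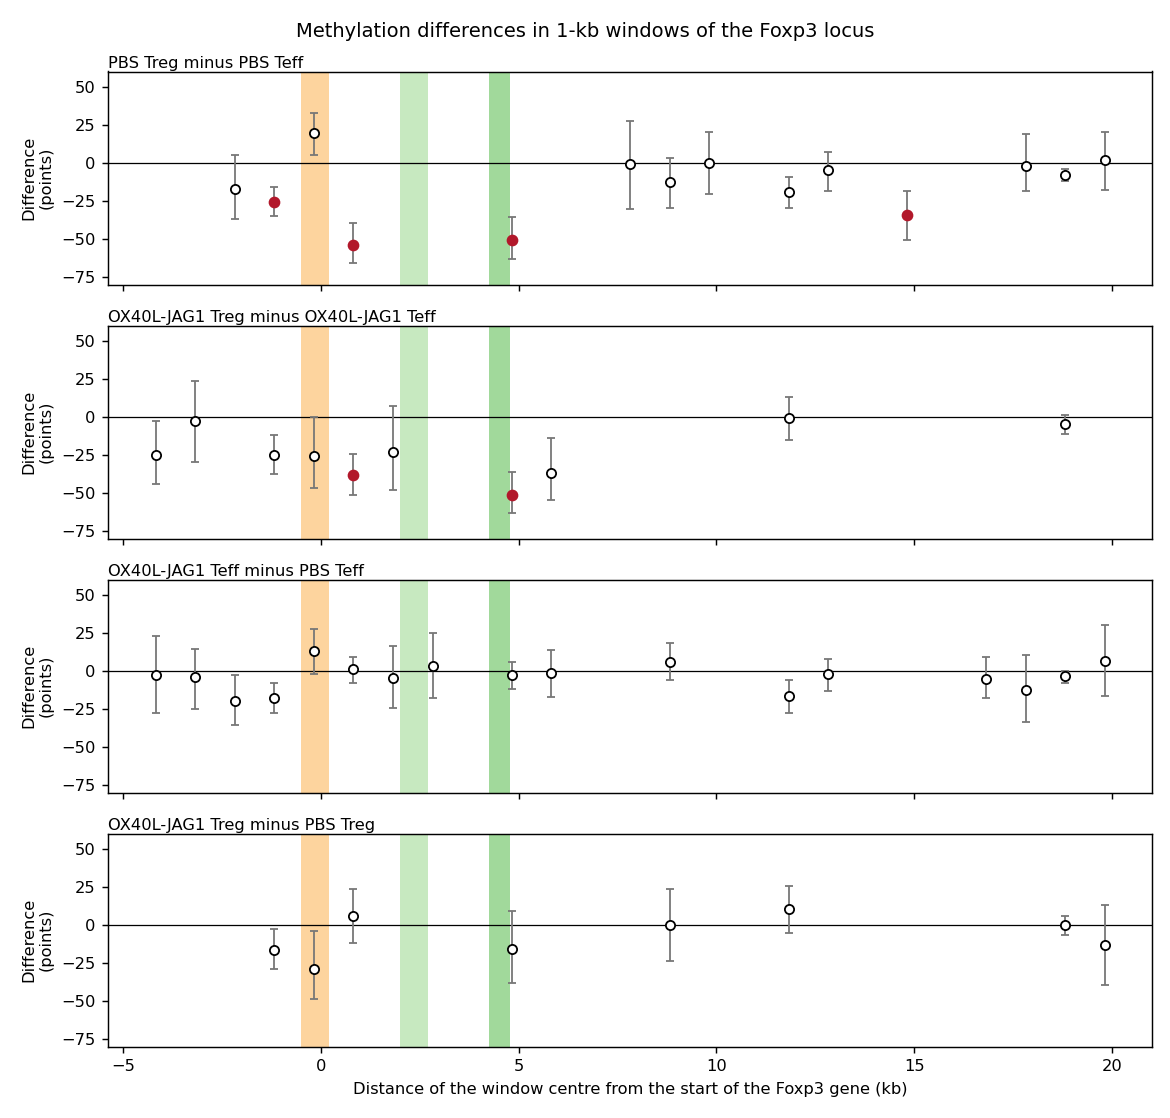
Difference in methylation (percentage points, 95% Newcombe intervals) of each tested 1-kb window wholly inside the locus against the distance of its centre from the gene start (kb), for the 4 comparisons, with the first-named library minus the second. Filled red points are called windows: 4 between the PBS libraries and 2 between the OX40L-JAG1 libraries lie below 0, and neither treatment comparison has any; shading marks the promoter, CNS1 and CNS2.

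No single position was called. By Fisher's exact test per position, 16 of 103 had an unadjusted p under 0.05 between the PBS libraries and 10 of 79 between the OX40L-JAG1 libraries. Over the genome 0.00434% of positions were called lower and 0.00339% higher in the PBS pair, and 0.000968% lower and 0.000417% higher in the OX40L-JAG1 pair. The smallest p of the locus belonged to site 7580250 before the downstream start, with 3 of 11 reads methylated in PBS Treg and 17 of 17 in PBS Teff (exact p = 5.31e-05, adjusted p = 0.369). This position was chosen after its values were seen.

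The CpGs before the downstream start were less methylated in both Treg libraries. Of each CpG only the minus-strand cytosine was listed at these 7 sites. At site 7580236, the first, 4 of 8 reads were methylated in OX40L-JAG1 Treg and 3 of 12 in PBS Treg, against 13 of 13 in OX40L-JAG1 Teff and 18 of 19 in PBS Teff. At site 7580250 the counts were 4 of 9 in OX40L-JAG1 Treg and 3 of 11 in PBS Treg, against 12 of 13 in OX40L-JAG1 Teff and 17 of 17 in PBS Teff. At site 7580281 they were 3 of 7 in OX40L-JAG1 Treg and 2 of 9 in PBS Treg, against 10 of 12 in OX40L-JAG1 Teff and 14 of 16 in PBS Teff. At each of these CpGs both Treg libraries were below both Teff libraries.

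The next CpGs had that order too, though neighbouring positions can share reads. At site 7580291 OX40L-JAG1 Treg and PBS Treg each had 4 of 7 reads methylated, against 12 of 12 in OX40L-JAG1 Teff and 18 of 18 in PBS Teff. At site 7580354 the counts were 2 of 6 in OX40L-JAG1 Treg and 2 of 8 in PBS Treg, against 5 of 5 in OX40L-JAG1 Teff and 12 of 13 in PBS Teff. Site 7580314 was not listed in PBS Treg and had 5 of 9 in OX40L-JAG1 Treg, 8 of 9 in OX40L-JAG1 Teff and 16 of 17 in PBS Teff. Nearest the start, site 7580433 was listed in 2 libraries, with 6 of 10 in OX40L-JAG1 Treg and 10 of 12 in PBS Teff.

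Set against the same 300-base window, 250 bases before to 50 after the start, at other RefSeq starts, this was the lowest difference of all 4695 promoters tested in the PBS pair. The level was 29.8% in PBS Treg and 95.2% in PBS Teff, a difference of -65.4 points (-76.9 to -49.6, adjusted p over all promoters = 7.41e-12, exact test), where 0.0852% of promoters were called lower and 0.128% higher. With OX40L-JAG1 it was 47.8% in Treg and 93.8% in Teff, a difference of -45.9 points (-60.1 to -29.4, adjusted p = 4.56e-05, exact test). There 2949 promoters were tested, 0.0339% were called lower and 0.136% higher, and Foxp3 was the 1 promoter called lower. The promoter windows were added after the values were seen. All tested positions of this one also lie in the called window chrX:7580001-7581000, so its rank and p-values are no separate support. They lie close together and can share reads, so the p-values can be too small and the intervals too narrow. No setting with fewer reads or positions was run on promoter windows.

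**Figure D3:**
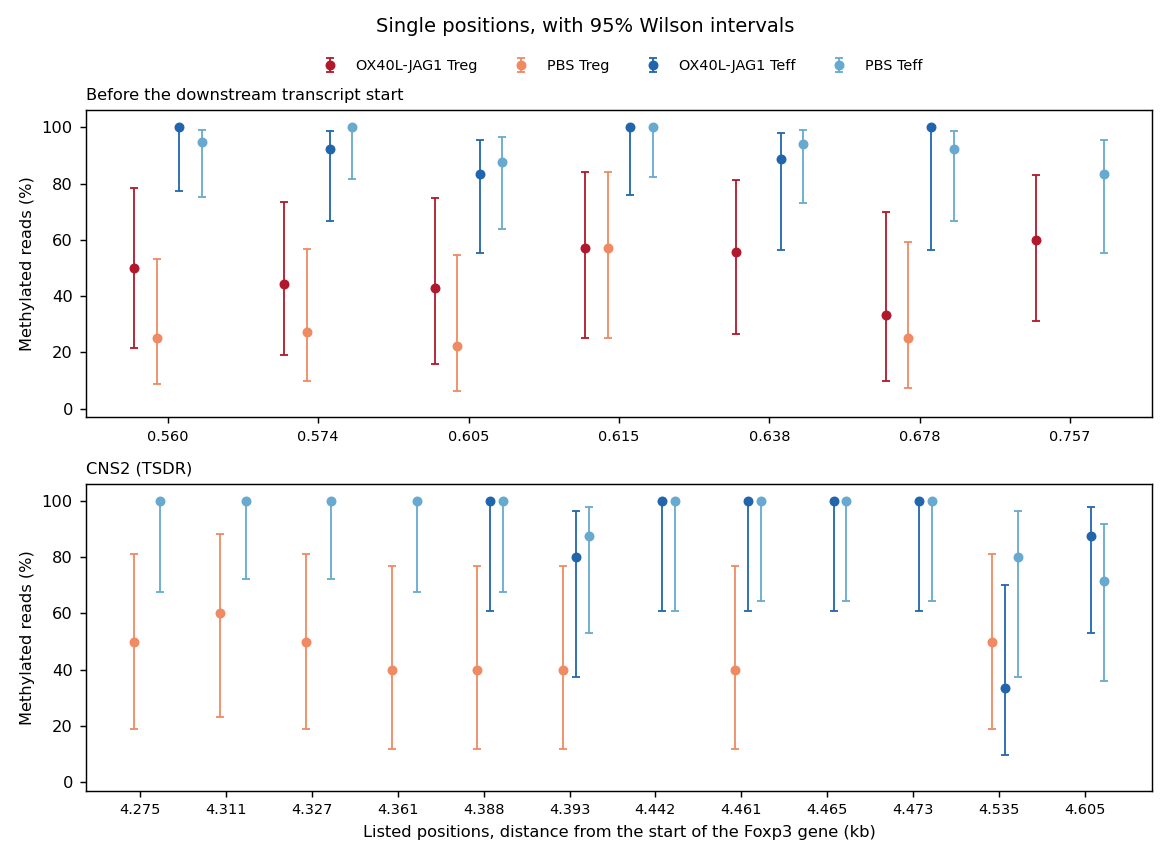
Methylated reads (%) with 95% Wilson intervals at single positions before the downstream transcript start (top) and in CNS2 (bottom), by library, labelled by distance from the gene start (kb). Before the downstream start the Treg points lie at 22.2% to 60% and the Teff points at 83.3% to 100%; in CNS2 the 8 PBS Treg points lie at 40% to 60% and OX40L-JAG1 Treg has none.

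The upstream start did not follow this pattern. The promoter stretch, chrX:7579176-7579876, had 30.8% in OX40L-JAG1 Treg and 59.6% in PBS Treg, against 51.3% in OX40L-JAG1 Teff and 41.7% in PBS Teff. At the 10 positions read in both PBS libraries, Treg was above Teff by 19.3 points (5.05 to 32.5), higher at 9 positions and lower at 1. At the 4 positions read in both OX40L-JAG1 libraries, Treg was below Teff, with a difference of -25.5 points and an interval that reached 0.128. With only the deepest position in each 150 bases the promoter differences were 20.4 points (-0.734 to 39.2) between the PBS libraries and -10.3 points (-38.4 to 21.7) between the OX40L-JAG1 ones. Neither 1-kb window test passed (adjusted p = 0.815 between the PBS libraries and 1 between the OX40L-JAG1 libraries, exact tests). The 300-base window at the upstream start had 58.6% in PBS Treg and 37.5% in PBS Teff, a difference of 21.1 points that was not called (adjusted p = 0.723, exact test). It had too few positions in the OX40L-JAG1 pair to be tested there.

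At site 7579475, the deepest of the promoter, 1 of 8 reads was methylated in OX40L-JAG1 Treg and 6 of 11 in PBS Treg, against 1 of 10 in OX40L-JAG1 Teff and 3 of 15 in PBS Teff. PBS Treg thus stood above the other three libraries there. The 5 plus-strand CpGs close to the TATAAA letters, sites 7579605 to 7579641, were not listed in OX40L-JAG1 Treg and lay at 50% to 62.5% in PBS Treg, 37.5% to 62.5% in OX40L-JAG1 Teff and 18.2% to 53.8% in PBS Teff. Of the same CpGs, 3 were also listed on the minus strand in PBS Teff, each with 0 of 5 reads methylated. At these CpGs the strands of 1 library gave different levels.

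Farther upstream in the promoter the pairs went opposite ways. Site 7579246 had 1 of 6 reads methylated in OX40L-JAG1 Treg and 5 of 8 in PBS Treg, against 5 of 7 in OX40L-JAG1 Teff and 4 of 10 in PBS Teff. Site 7579280 had 3 of 6 in OX40L-JAG1 Treg and 6 of 9 in PBS Treg, against 6 of 8 in OX40L-JAG1 Teff and 2 of 8 in PBS Teff. Site 7579235 had 3 of 6 in OX40L-JAG1 Treg and 5 of 9 in PBS Treg, against 6 of 7 in OX40L-JAG1 Teff and 7 of 9 in PBS Teff, and was lower in Treg in both pairs. The remaining promoter positions were listed in at most 2 libraries with 5 or 6 reads each, other than site 7579279 with 4 of 8 in PBS Teff.

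CNS1, chrX:7581679-7582383, was lower in Treg in the PBS pair. The level was 33.3% in OX40L-JAG1 Treg and 14.3% in PBS Treg, against 68.9% in OX40L-JAG1 Teff and 66.7% in PBS Teff. Listed positions numbered 3 in OX40L-JAG1 Treg and 4 in PBS Treg, against 9 in OX40L-JAG1 Teff and 6 in PBS Teff. At the 4 positions read in both PBS libraries the difference was -45.1 points (-62.5 to -20.8), lower at all 4. It was -44.1 points (-63.0 to -16.9) with only the deepest position in each 150 bases. At the 3 read in both OX40L-JAG1 libraries it was -11.5 points, with an interval from -36.0 to 16.7. The deepest CNS1 position, site 7582283, had 1 of 7 reads methylated in OX40L-JAG1 Treg and 1 of 9 in PBS Treg, against 6 of 13 in OX40L-JAG1 Teff and 7 of 12 in PBS Teff. Site 7581944 had 1 of 6 in OX40L-JAG1 Treg and 1 of 8 in PBS Treg, against 3 of 10 in OX40L-JAG1 Teff and 4 of 9 in PBS Teff. Both positions were lower in Treg than in Teff within each treatment.

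Elsewhere in CNS1 few Treg values were listed. Site 7581943 had 1 of 6 in PBS Treg, against 4 of 7 in OX40L-JAG1 Teff and 4 of 6 in PBS Teff. Site 7582110 had 1 of 5 in PBS Treg, against 6 of 7 in OX40L-JAG1 Teff and 4 of 5 in PBS Teff. Site 7582060 went the other way, with 4 of 5 in OX40L-JAG1 Treg and 4 of 6 in OX40L-JAG1 Teff. The other 4 CNS1 positions were listed in Teff libraries only, at 66.7% to 100%.

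CNS2, chrX:7583938-7584463, had 12 listed positions, and PBS Treg was about midway between unmethylated and methylated. The level was 46.5% in PBS Treg, against 87.8% in OX40L-JAG1 Teff and 95.6% in PBS Teff. OX40L-JAG1 Treg had no position with 5 reads there, so its TSDR level was not measured. At the 8 positions read in both PBS libraries, with 43 reads in Treg and 64 in Teff, the difference was -50.4 points (-64.5 to -33.9), lower at all 8. These positions lie close together and can share reads. With only the deepest position in each 150 bases 3 positions were left, and the difference was -52.9 points (-73.8 to -27.2).

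The PBS Treg values inside CNS2 were close to each other. Sites 7583951, 7584003 and 7584211 each had 3 of 6 reads methylated, and site 7583987 had 3 of 5. Sites 7584037, 7584064, 7584069 and 7584137 each had 2 of 5. No listed CNS2 position of PBS Treg was below 40% or above 60%, though 5 or 6 reads allow a wide range around each value. Neighbouring positions can share reads, so the closeness of these values is not agreement between separate sets of reads.

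In PBS Teff all reads were methylated at 9 of the 12 CNS2 positions, with 6 to 10 reads each. The other three had 7 of 8 at site 7584069, 4 of 5 at site 7584211 and 5 of 7 at site 7584281. OX40L-JAG1 Teff had all reads methylated at 5 of its 8 positions. The other three had 4 of 5 at site 7584069, 2 of 6 at site 7584211 and 7 of 8 at site 7584281. Site 7584211 was the lowest CNS2 position of OX40L-JAG1 Teff, below PBS Treg at the same site.

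Between CNS2 and CNS3 the lower Treg methylation went on, and here OX40L-JAG1 Treg was read. The level was 40.9% in OX40L-JAG1 Treg and 57.1% in PBS Treg, against 86.1% in OX40L-JAG1 Teff and 88.1% in PBS Teff. All 16 positions read in both OX40L-JAG1 libraries were lower in Treg, with differences of -20.8 to -83.3 points, and the pooled difference was -46.4 points (-56.8 to -34.1). In the PBS pair 4 of 4 were lower, with a pooled difference of -48.2 points (-66.1 to -23.1). With only the deepest position in each 150 bases the difference was -42.7 points (-60.1 to -20.5, 5 positions) in the OX40L-JAG1 pair. It was -43.0 points (-63.7 to -15.5, 3 positions) in the PBS pair. The deepest position, site 7584770, had 5 of 8 reads methylated in OX40L-JAG1 Treg and 2 of 5 in PBS Treg, against 7 of 7 in OX40L-JAG1 Teff and 11 of 12 in PBS Teff. The called OX40L-JAG1 window at CNS2 rests on these positions and on none inside CNS2 itself. CNS3, chrX:7586585-7586779, had no listed position.

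**Figure D4:**
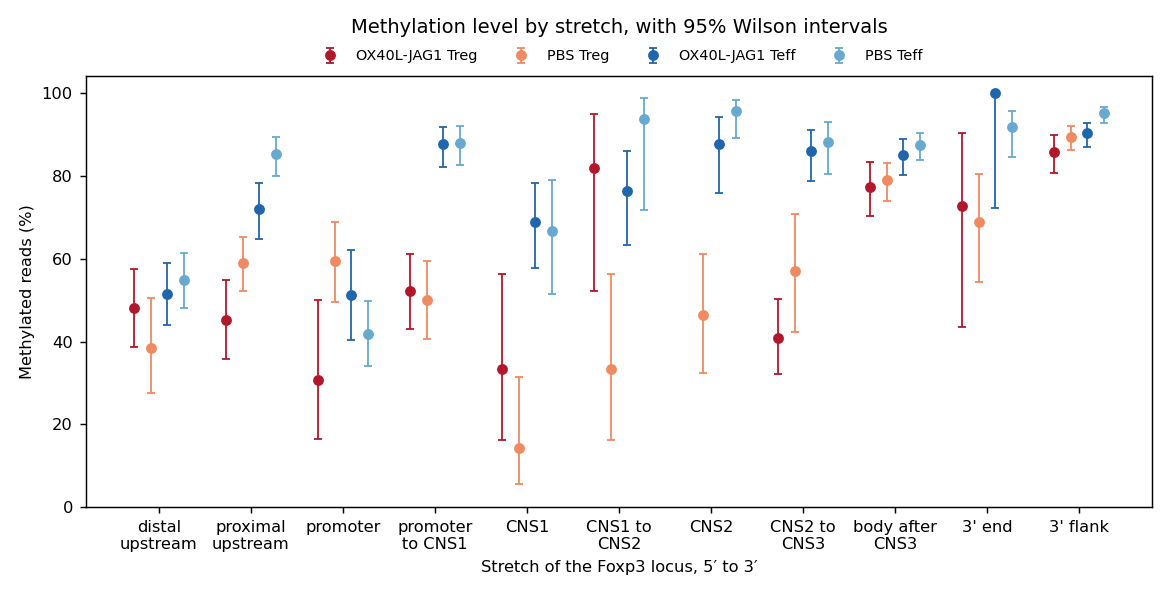
Methylated reads summed over the positions of each stretch (%), with 95% Wilson intervals, by library, for the stretches in 5′ to 3′ order; CNS3 had no listed position. From the stretch between promoter and CNS1 to that between CNS2 and CNS3, PBS Treg lies at 14.3% to 57.1% and PBS Teff at 66.7% to 95.6%, while in the 3′ flank all 4 libraries lie at 85.8% to 95.1%.

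The stretch between the promoter and CNS1, which holds the downstream start, had 52.2% in OX40L-JAG1 Treg and 50% in PBS Treg, against 87.8% in OX40L-JAG1 Teff and 88.0% in PBS Teff. All 6 positions read in both PBS libraries were lower in Treg, and all 11 read in both OX40L-JAG1 libraries. Its deepest position was site 7580236, given above. Between CNS1 and CNS2 no position was read in both PBS libraries. Its deepest position, site 7583355, had 5 of 6 reads methylated in OX40L-JAG1 Treg and 5 of 5 in PBS Treg, against 4 of 5 in OX40L-JAG1 Teff. Just before CNS2, sites 7583801 and 7583823 had 1 of 6 and 0 of 7 in PBS Treg and were not listed in PBS Teff.

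Upstream of the promoter, the proximal stretch, chrX:7577176-7579175, had 45.1% in OX40L-JAG1 Treg and 59.0% in PBS Treg, against 72.1% in OX40L-JAG1 Teff and 85.4% in PBS Teff. Treg minus Teff was -24.7 points in the PBS pair (-33.1 to -15.7, 9 positions) and -25.0 points in the OX40L-JAG1 pair (-37.4 to -11.6, 7 positions). Its deepest position, site 7578517, had 10 of 24 reads methylated in OX40L-JAG1 Treg and 40 of 62 in PBS Treg, against 26 of 36 in OX40L-JAG1 Teff and 42 of 46 in PBS Teff. The 4 libraries thus kept one order from OX40L-JAG1 Treg, the lowest, to PBS Teff, the highest, in the pooled level of this stretch and at this position. Not every position kept it. Of 5 positions read in both Treg libraries, 3 were lower and 2 higher with OX40L-JAG1. At site 7578702, 10 of 12 reads were methylated in OX40L-JAG1 Treg and 12 of 19 in PBS Treg. The distal stretch, chrX:7574676-7577175, was at 48.0% in OX40L-JAG1 Treg and 38.5% in PBS Treg, against 51.5% in OX40L-JAG1 Teff and 54.9% in PBS Teff. Its deepest position, site 7575108, lay at 30% in OX40L-JAG1 Treg and 12.5% in PBS Treg, against 33.3% in OX40L-JAG1 Teff and 30% in PBS Teff, with 8 to 10 reads each.

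After CNS3 the libraries came closer together. The gene body there had 77.4% in OX40L-JAG1 Treg and 78.9% in PBS Treg, against 85.1% in OX40L-JAG1 Teff and 87.3% in PBS Teff. Treg minus Teff was -11.6 points in the PBS pair (-18.4 to -5.16, 28 positions) and -5.51 points in the OX40L-JAG1 pair (-17.2 to 5.97, 10 positions). At the deepest position, site 7591205, 20 of 22 reads were methylated in OX40L-JAG1 Treg and 26 of 28 in PBS Treg, against 33 of 36 in OX40L-JAG1 Teff and 49 of 50 in PBS Teff. Near it, site 7591027 had 14 of 21 in OX40L-JAG1 Treg and 8 of 22 in PBS Treg, against 17 of 25 in OX40L-JAG1 Teff and 33 of 39 in PBS Teff. This second position was chosen after its values were seen, for its unadjusted p in the PBS pair.

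At the last 1000 bases of the gene PBS Treg was below PBS Teff at all 7 positions read in both, with a difference of -30.5 points (-46.0 to -15.3). No position there was read in both OX40L-JAG1 libraries. The deepest, site 7594767, had 5 of 6 reads methylated in OX40L-JAG1 Treg and 5 of 7 in PBS Treg, against 5 of 5 in PBS Teff. The gene Ccdc22 overlaps this end of Foxp3. The 3′ flank had 85.8% in OX40L-JAG1 Treg and 89.4% in PBS Treg, against 90.3% in OX40L-JAG1 Teff and 95.1% in PBS Teff, with differences of -6.30 points between the PBS libraries and -6.27 points between the OX40L-JAG1 libraries. Its deepest position, site 7598653, had 41 of 45 in OX40L-JAG1 Treg and 77 of 79 in PBS Treg, against 55 of 61 in OX40L-JAG1 Teff and 78 of 81 in PBS Teff, far above the median of 6 or 7 reads. Without positions of 20 or more reads in either library, the locus difference of the OX40L-JAG1 pair was -25.9 points.

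The treatment differences over the locus were smaller, as point values, than those between the cell types at a minimum of 5 reads. With at least 10 reads this no longer held for the Teff libraries, at -8.79 points, against the OX40L-JAG1 Treg and Teff libraries, at -7.90 points. At that setting the PBS Treg and Teff libraries differed by -15.5 points and the Treg libraries by -4.85 points (-11.5 to 1.55). In Teff, OX40L-JAG1 minus PBS was -3.72 points over 118 positions (-6.83 to -0.636), with 51 positions lower, 30 equal and 37 higher. Without positions of 20 or more reads in either library it was -0.819 points (-4.80 to 3.13). The median 1-kb window of the genome moved by -3.21 points in the same comparison, and by -4.18 points on the X chromosome. In Treg, OX40L-JAG1 minus PBS was -6.04 points over 57 positions (-11.1 to -0.993), with 26 lower, 6 equal and 25 higher. It was -2.90 points with positions weighted equally and -2.76 points (-9.97 to 4.45) without positions of 20 or more reads. The median window of the genome moved by -2.38 points there, and by -3.32 points on the X chromosome. Centred on the genome's median window, the Teff locus difference was -0.512 points (-3.63 to 2.57) and the Treg one -3.66 points (-8.74 to 1.39).

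No window of the locus was called for the treatment. Fisher's exact test called 0 of 17 windows in Teff, of which 3 had an unadjusted p under 0.05, where 0.259% of the genome's windows were called lower and 0.0347% higher. It called 0 of 8 windows in Treg, of which 2 had an unadjusted p under 0.05, where 0.0282% were called lower and 0.00592% higher. No position was called either, with an unadjusted p under 0.05 at 3 of 118 positions in Teff and 1 of 57 in Treg. Over the genome 0.00772% of positions were called lower and 0.000965% higher in Teff, and 0.000197% lower and 1.65e-05% higher in Treg.

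Among the stretches, the treatment difference in Teff was largest upstream of the promoter. In the proximal upstream stretch all 10 positions read in both Teff libraries were lower with OX40L-JAG1, with a pooled difference of -19.3 points (-27.9 to -10.6). The 1-kb window there, chrX:7578001-7579000, had 70.6% in OX40L-JAG1 Teff and 88.3% in PBS Teff, a difference of -17.7 points that missed the call (adjusted p = 0.0594, exact test). At CNS2 the Teff difference was -4.97 points over 8 positions, with an interval of -17.8 to 6.95, and it was 4.09 points (-15.6 to 23.3) with only the deepest position in each 150 bases. Before the downstream start it was -1.25 points (-10.4 to 6.00), with 93.8% in OX40L-JAG1 Teff and 95% in PBS Teff.

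In Treg the treatment comparison lacked CNS2. Before the downstream start OX40L-JAG1 Treg had 45.9% and PBS Treg 29.8%, a difference of 16.2 points (-4.42 to 35.4) that was not called (adjusted p = 1, exact test). Promoter windows were called for the treatment in 0.156% (lower) and 0.139% (higher) of cases in Teff, and in 0.0794% (lower) and 0.0397% (higher) in Treg. In the promoter stretch Treg was lower with OX40L-JAG1 at all 4 shared positions, with a difference of -28.7 points (-48.8 to -3.70) that was -26.4 points (-52.0 to 6.92) with the deepest position in each 150 bases, and the 1-kb window was not called (adjusted p = 0.694, exact test). Between CNS2 and CNS3 the difference was -15.9 points over 5 positions (-38.4 to 8.86), and the direction turned, to 22.7 points (-14.6 to 51.8), with only the deepest position in each 150 bases.

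Whether the Treg to Teff difference itself differed between treatments was examined with an interaction term in logistic regression (Wald test). It was run on windows read in all 4 libraries, 6 of which lay in the locus. None was called, all at an adjusted p of 1, and 0.00626% were called over the genome. The test gave an unadjusted p under 0.05 for 2 windows. The promoter window, chrX:7579001-7580000, had 30.8% in OX40L-JAG1 Treg and 59.5% in PBS Treg, against 56.3% in OX40L-JAG1 Teff and 38.1% in PBS Teff at its shared positions. The window chrX:7591001-7592000 had 73.8% in OX40L-JAG1 Treg and 63.2% in PBS Treg, against 74.4% in OX40L-JAG1 Teff and 90.6% in PBS Teff.

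As a whole locus, Foxp3 stood low among genes in both Treg to Teff pairs, but not at the extreme. Of 23234 gene loci with at least 20 positions in each library, 505 had a lower difference than Foxp3 in the PBS pair, in which Foxp3 was at -12.6 points over all positions of each library and the median gene at -0.0148 points. In the OX40L-JAG1 pair 290 were lower, with Foxp3 at -17.2 points and the median gene at 0.843 points. The 5 genes closest to Foxp3 in the 4 locus levels, by the root mean square difference, were Tsku (2.07 points), Zfp572 (2.23 points), Ppox (2.52 points), Fchsd1 (2.67 points) and Creg2 (2.81 points), none of which overlaps the Foxp3 locus.

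Levels at neighbouring genes, each with its flanks, were read in the same way. Flicr, a long noncoding RNA gene that overlaps the 5′ end of Foxp3, had a locus level of 46.9% in OX40L-JAG1 Treg and 50.9% in PBS Treg, against 68.2% in OX40L-JAG1 Teff and 64.3% in PBS Teff. Ccdc22, which overlaps the 3′ end, had 80.4% in OX40L-JAG1 Treg and 78.9% in PBS Treg, against 74.2% in OX40L-JAG1 Teff and 83.2% in PBS Teff. Cacna1f, a calcium channel gene beyond it, had 76.9% in OX40L-JAG1 Treg and 74.5% in PBS Treg, against 70.5% in OX40L-JAG1 Teff and 75.1% in PBS Teff. On the upstream side lies Ppp1r3f, a phosphatase regulatory subunit gene whose flank overlaps the Foxp3 locus. Its locus level was 62.4% in OX40L-JAG1 Treg and 63.5% in PBS Treg, against 68.3% in OX40L-JAG1 Teff and 71.6% in PBS Teff. The window chrX:7574001-7575000 crosses the end of the Foxp3 locus at the start of this gene. It was called higher in PBS Treg, with 46.9% against 22.4% in PBS Teff (24.5 points, adjusted p = 0.00267, exact test), and had 43.8% in OX40L-JAG1 Treg against 58.8% in OX40L-JAG1 Teff, which was not called.

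The methylation of other gene starts on the X chromosome was intermediate in all 4 libraries. At promoters with at least 20 CpGs the median level on the X chromosome was 32.6% in OX40L-JAG1 Treg and 36% in PBS Treg, against 33.3% in OX40L-JAG1 Teff and 34.6% in PBS Teff, and 0% on the autosomes in each. The Xist start lay at 50.5% in OX40L-JAG1 Treg and 57.4% in PBS Treg, against 48.1% in OX40L-JAG1 Teff and 47.2% in PBS Teff. The starts of X-linked housekeeping genes had medians of 26.2% to 38.1%, and those of autosomal housekeeping genes 0% to 1.14%. The inactive X chromosome of female cells is known to be methylated at many CpG-rich starts. What share of the Foxp3 reads came from an inactive X chromosome was not tested, and the reads of the 2 X chromosomes of a female cell cannot be told apart in these counts.

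Genes whose products act at the Foxp3 locus were counted from a list of 29. In the PBS pair 9 had at least 1 called window lower in Treg and 10 had one higher, where 3.48% of protein-coding genes had a lower and 2.01% a higher window. In the OX40L-JAG1 pair 3 had a lower and 5 a higher window, where the genome gave 0.678% and 0.616%. Long genes hold more windows and so have more chances of a call. Over the 29 loci the median difference was -0.654 points between the PBS libraries and 0.301 points between the OX40L-JAG1 libraries. In both pairs Ikzf2 (Helios) and Ikzf4 (Eos), partners of Foxp3 in regulatory T cells, had a window lower in Treg. Both genes are also among the Treg markers below. Lef1, Runx3, Satb1 and Tcf7 had windows called higher in Treg in each pair, and none lower. Bach2 had 3 windows called higher and 3 called lower in PBS Treg, among the lower ones chr4:32405001-32406000 at -54.8 points, and 1 called higher in OX40L-JAG1 Treg.

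The largest called differences were at Ikzf2, Satb1 and Lef1 in the PBS pair. A window of Ikzf2 (chr1:69680001-69681000) had 10.8% in PBS Treg and 87.5% in PBS Teff, a difference of -76.7 points (adjusted p = 3.18e-10, exact test). A window of Satb1, a chromatin organiser (chr17:51815001-51816000), had 82.1% in PBS Treg and 12.3% in PBS Teff, a difference of 69.8 points (adjusted p = 3.38e-12, exact test). A window of Lef1, a transcription factor of naive T cells (chr3:131118001-131119000), had 75% in PBS Treg and 5.56% in PBS Teff, a difference of 69.4 points (adjusted p = 0.0279, exact test). In the OX40L-JAG1 pair the largest was again in Ikzf2 (chr1:69674001-69675000), with 23.1% in Treg and 100% in Teff, a difference of -76.9 points (adjusted p = 3.42e-07, exact test). For the treatment, 10 genes of the list had a lower and 9 a higher window in Teff, where 7.35% and 1.82% of genes did, and 1 had a lower and 4 a higher window in Treg, where 0.605% and 0.186% did.

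The sort labels were set against marker genes. All 6 Treg marker genes (Foxp3, Il2ra, Ctla4, Ikzf2, Ikzf4 and Tnfrsf18) had at least 1 window called lower in Treg with PBS, and 4 of 6 did with OX40L-JAG1, where 3.48% (PBS) and 0.678% (OX40L-JAG1) of protein-coding genes did. Foxp3 is itself on this list, and 1 of the 6, Foxp3 with its window at the start of Ppp1r3f, also had a window called higher in PBS Treg. Their median locus level was 54.4% in OX40L-JAG1 Treg and 59.9% in PBS Treg, against 72.6% in OX40L-JAG1 Teff and 77.4% in PBS Teff. The 7 T cell genes lay at 27.8% to 68.6% over the libraries, and the 7 B cell genes had medians of 82.2% to 85.8%. Of the T cell genes, 2 had a window called lower and 1 had one called higher in PBS Treg. In the OX40L-JAG1 pair 0 had either. Fisher's exact test called 0 of 162 B cell gene windows in the PBS pair and 0 of 113 in the OX40L-JAG1 one, with an unadjusted p under 0.05 at 9 windows of the PBS pair and 6 of the other. The genome's shares were 0.0971% lower and 0.0494% higher in the PBS pair, and 0.0239% and 0.0189% in the other. Between the Teff libraries 1 of 192 was called, lower with OX40L-JAG1, and 27 had an unadjusted p under 0.05. There the genome gave 0.259% lower and 0.0347% higher. Between the Treg libraries 0 of 100 were called, and 10 had an unadjusted p under 0.05. Of 7 myeloid genes, 1 had a window called higher in Treg in each pair, where 2.01% (PBS) and 0.616% (OX40L-JAG1) of protein-coding genes did. Between the Teff libraries 1 had a window called higher with OX40L-JAG1, where 1.82% of protein-coding genes did. The share of cells of another type in each library, and its part in the Foxp3 levels, was not tested. In bulk DNA a mixture of cells and a uniform intermediate level cannot be told apart.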

How the data were processed

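Genomic DNA of 4 sorted spleen T cell libraries was bisulfite converted and sequenced. Reads were handled with Trimmomatic and Bismark on mm10, per the submitters' processing notes. Their versions and settings, and whether duplicates were removed, are not given in the sources used here. Per the file headers, the deposited table holds, per library, a read count and a methylated read count at each listed cytosine, nearly all in CpGs. It also holds a methylation level, deposited as a fraction from 0 to 1. Nonzero read counts in the deposited table start at 5, so a position with fewer reads is listed at 0 and the totals are not sequencing depth. The table had 0 columns without a sample. Listed reads summed over positions numbered 103584075 in OX40L-JAG1 Treg and 131555634 in PBS Treg, against 159291553 in OX40L-JAG1 Teff and 208402911 in PBS Teff. Of 234715 listed positions in RefSeq promoter windows, 99.6% fell on a CpG, so sites were read as counted from 1.

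Reads were summed over positions read in both libraries of a comparison. Windows of 1 kb, promoter windows and positions were tested over the whole genome without the mitochondrial chromosome, by the two-sided Fisher's exact test with Benjamini-Hochberg adjustment. The interaction used a Wald test in logistic regression, after 0.5 was added to every cell. Intervals are 95% Wilson (levels) and Newcombe (differences) intervals and cover counting error only. Both they and the tests take the counts at each position as separate reads. Because a read is counted again at every position on it, the intervals can be too narrow and the p-values too small. The window test was tried on simulated reads drawn separately at each position. Reads shared by neighbouring positions were not part of that trial. Python 3.11.15, numpy 2.4.6, pandas 2.3.3, scipy 1.17.1, numba 0.67.0 and matplotlib 3.10.9 were used. RefSeq promoters and genes are of GRCm38.p6, and exons and introns were not told apart. The bounds of the conserved sequences, counted from the gene start, were recalled from published mouse deletions and not checked against an annotation. The levels of CNS1 and CNS2 and the lack of listed positions in CNS3 rest on these bounds.

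The locus, stretches, gene lists and tests were chosen with earlier results of these data known, and the promoter windows were added after the values were seen. By the rule for named items, values are given for the positions of the promoter, CNS1 and CNS2, for the deepest position of each other stretch, for the 5 genes most like Foxp3, and for up to 5 genes that act at the locus. Alternatives were a minimum of 10 reads, positions weighted equally, strands merged, positions read in all libraries, windows of 500 bases, at least 5 positions, no minimum difference, counts divided by 3, centring, and the deepest position in each 150 bases.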

Additional observations from a re-analysis of the deposited data

How the results depend on the processing

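Of the results on the whole locus and on called windows, 65 settings gave the same outcome, 10 moved the value and none reversed its direction. The same outcomes include counts of 0 called positions, which a stricter setting could not lower. They also include the difference between the Teff libraries without positions of 20 or more reads in either library. It was -0.819 points (-4.80 to 3.13), against -3.72 points at the main setting. With a minimum of 10 reads the locus difference was -7.90 points in the OX40L-JAG1 pair (11 positions) and -8.79 points between the Teff libraries (19 positions), and 2 windows were called between the PBS libraries and 0 between the OX40L-JAG1 libraries. With the deepest position in each 150 bases the OX40L-JAG1 pair differed by -14.5 points, and without positions of 20 or more reads, a setting chosen after seeing the data, by -25.9 points. Centred on the genome's median window, the Teff libraries differed by -0.512 points. With only positions read in all 4 libraries, 1 window was called in the OX40L-JAG1 pair. With all counts divided by 3, 0 windows were called between the PBS libraries and 0 between the OX40L-JAG1 libraries. The cause of these changes was not tested. No paired analysis was possible because each group had 1 library, which also leaves no replicate to drop and no spread between animals. CNS2 in OX40L-JAG1 Treg and CNS3 in every library gave no value, and whether CNS3 holds CpGs was not examined. Between the Treg libraries the locus interval included 0 under 5 settings. Between the Teff libraries it did so when centred on the genome's median window and without positions of 20 or more reads.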

Other observations

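Adjacent listed positions, the 2 strands of a CpG, could be compared within a library at 77 pairs of sites. Both strands had at least 5 reads at 8 of them in OX40L-JAG1 Treg and 12 in PBS Treg, against 20 in OX40L-JAG1 Teff and 24 in PBS Teff. The median gap between the strands was 16.7 points in OX40L-JAG1 Treg and 13.1 points in PBS Treg, against 7.62 points in OX40L-JAG1 Teff and 19.6 points in PBS Teff. The widest gaps were 66.7 points at site 7584843 in OX40L-JAG1 Treg, between CNS2 and CNS3, and 63.3 points at site 7584615 in PBS Treg, in the same stretch. In PBS Teff the widest was 53.8 points at site 7579614, before the upstream start.

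The 5 kb beyond the upstream end of the locus went the other way from Foxp3. At 30 positions read in both PBS libraries the level was 48.6% in PBS Treg and 39.7% in PBS Teff, a difference of 8.95 points (0.570 to 17.2). At 12 positions of the OX40L-JAG1 pair the 5 kb had 61.1% in Treg and 46.4% in Teff, a difference of 14.7 points whose interval, -0.474 to 28.9, included 0.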
